A study of Mus musculus with 12 samples.

Results

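The genes described here are 10 C-type lectin receptor genes of the mouse: Clec7a, Clec4e, Clec4d, Clec4n, Clec5a, Clec4a2, Clec12a, Klrd1, Clec2i and Cd69. They were taken by name from the deposited table of read counts, which has 55401 genes, and all 10 were found. RNA was sequenced from Sp37A3, a dendritic cell (DC) line made from the spleen of a C57BL/6 mouse, in 4 groups of 3 libraries. CtrV cells carry an empty CRISPR vector and are labelled as expressing Siglec-E, an inhibitory receptor for sialic acid. EKO cells carry the vector with a guide against Siglece and are labelled as its knockout, and several selected clones were pooled to make this line. Both lines were maintained in medium with GM-CSF and M-CSF. Cells of each line were pulsed with ovalbumin (OVA groups) or left unpulsed (ut groups), and all 12 libraries, controls included, came from cells that then received LPS for 24 h. There is no group without LPS, so every level below is a level after stimulation.

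C-type lectin receptors are surface proteins that bind sugars, lipids or other self and microbial ligands, and DCs use them to sense fungi, mycobacteria and dying cells. Most activating members pass the signal to the kinase SYK, either through a tyrosine motif in their own tail or through an adaptor with an ITAM motif, and from SYK it runs to the CARD9 complex and NF-kB. Inhibitory members carry an ITIM motif in the tail, which recruits tyrosine phosphatases. Relatives of these receptors on NK cells lie in the same stretch of the genome and bind class I molecules or other lectins.

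Expression is given as CPM, counts scaled to a common library total after TMM normalization, and levels of different genes are compared only per kilobase of exon (RPKM). Library totals lay between 27116201 and 39698572 counts. The lines were compared with the quasi-likelihood test of edgeR over 14079 genes that passed a filter on low counts, and a gene was called at a Benjamini-Hochberg adjusted p under 0.05. The labels do not say whether the 3 libraries of a group came from separate cultures, so p measures the spread between these libraries only. EKO-labelled libraries held no less mRNA of the targeted gene: Siglece measured 152, 153 and 163 CPM in CtrV_OVA and 174, 208 and 202 CPM in EKO_OVA, a log2 difference of 0.31 ± 0.08 (SE, adjusted p = 0.011, edgeR). An editing event in the coding sequence need not lower the mRNA, so this gene does not check the labels at the RNA level, and per the study's methods the clones were instead sorted by phenotype and rechecked for Siglec-E before pooling. The line is called EKO-labelled below. Among the DC genes, 11 of 11 markers passed the filter, with a summed level of 20854 to 23801 CPM over the 12 libraries, most of it from Cd74. With OVA, 5 of these markers were called higher and 2 lower in EKO-labelled cells, beside 47.0% called over all tested genes. Without OVA, 4 were called higher and 2 lower, beside 46.4%. Higher with OVA were Flt3 (log2 difference 1.74 ± 0.42 SE, adjusted p = 0.0057, edgeR), Batf3 (1.67 ± 0.29, adjusted p = 0.00075), Xcr1 (1.47 ± 0.23, adjusted p = 0.0004), Irf8 (1.35 ± 0.15, adjusted p = 4e-05) and H2-Ab1 (0.52 ± 0.05, adjusted p = 2.2e-05). Lower were Ciita (-0.50 ± 0.09, adjusted p = 0.00081) and Itgax (-0.27 ± 0.06, adjusted p = 0.004). Xcr1 reached at most 1.38 CPM in a library. Flt3 was not called without OVA, where its replicate pairs differed by 2.26, -0.01 and -0.09. Batf3 was highest in EKO_OVA replicate 1, at 14.8 CPM against 6.08 and 10.6 CPM in replicates 2 and 3. The lines thus differ in single DC markers, and the part of this in the receptor results was not tested. The EKO libraries of replicate 1 stood apart from the other EKO libraries, with a chi-square of their counts, divided by its degrees of freedom, of 32.6 and 38.3 in unpulsed and 35.3 and 21.8 in pulsed cells, against 6.49 and 10.2 between replicates 2 and 3. CtrV_ut replicate 3 also differed more from replicates 1 and 2 (21.8 and 20) than those from each other (4.29), and all 10 genes below were called in both comparisons without it. Results without such libraries are also given for some of the 10 genes and for counts of genes. Marker genes and genes of the other lists were not examined without them.

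All 10 genes passed the filter, and all 10 were called between the lines, both in OVA-pulsed and in unpulsed cells. This count has to be read against a very large difference between the lines, with 47.0% of all tested genes called in pulsed cells and 46.4% in unpulsed cells. The receptors Clec4e, Clec4d, Clec4n, Clec5a, Clec4a2 and Cd69 were higher in EKO-labelled cells, and Clec7a, Clec12a, Klrd1 and Clec2i were lower. Over all tested genes, 25.1% were called higher and 21.9% lower in pulsed cells, and 24.5% higher and 21.9% lower in unpulsed cells. With upper-quartile normalization this balance turned, to 3103 genes higher and 3696 lower with OVA and 2910 higher and 3864 lower without, while the 10 genes kept 6 higher and 4 lower. The median absolute log2 fold change of the 10 genes was 1.52 in pulsed and 1.28 in unpulsed cells, beside 0.21 over all tested genes in both comparisons. A called log2 difference of at least 2 was seen for 4 of the 10 genes in pulsed cells, beside 3.16% of all tested genes, and for 3 of the 10 in unpulsed cells, beside 2.91%. Clec2i passed the filter through the CtrV libraries only, so a difference was built into its passing. Over the other 9 genes, the median absolute log2 fold change was 1.06 and 0.93, and 3 and 2 genes reached a called difference of at least 2. The 10 genes were chosen with earlier results of these data known, so these comparisons only describe them and do not test the class.

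**Figure D1:**
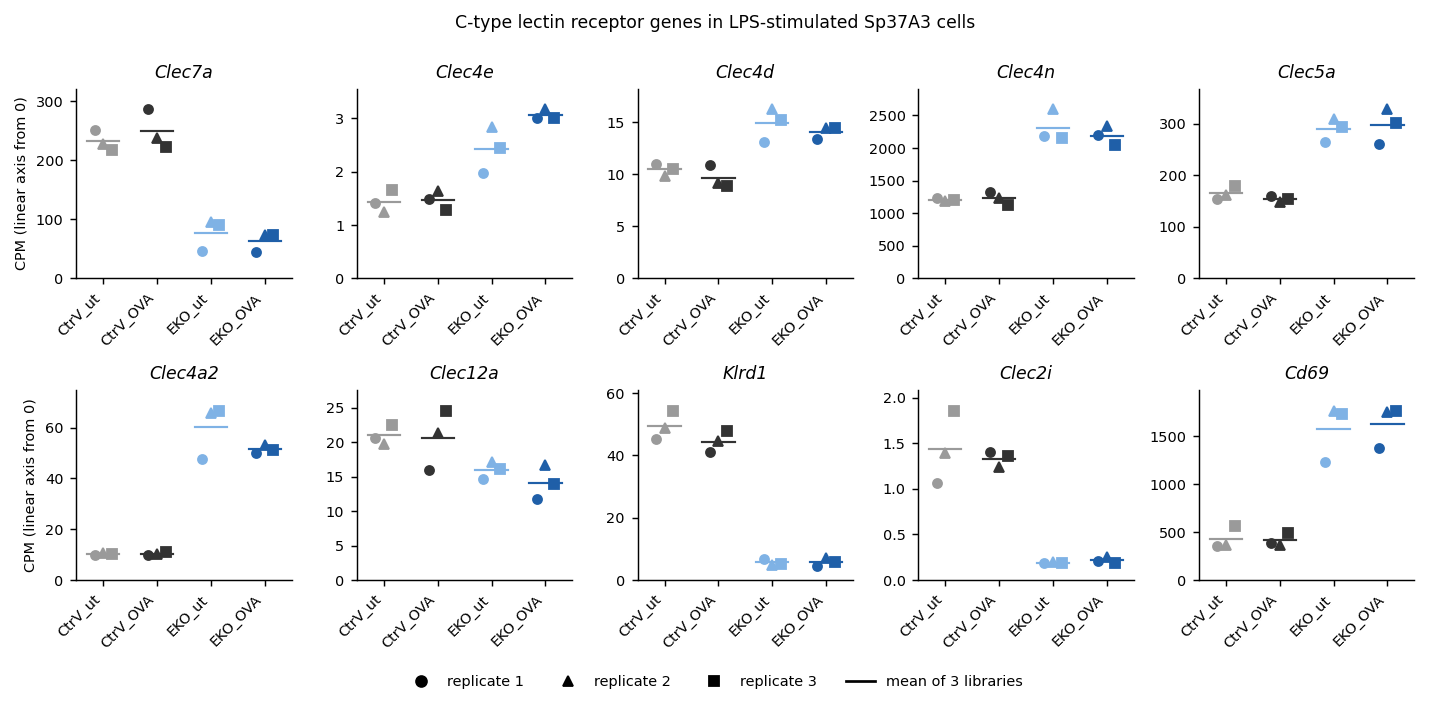
Expression of the 10 receptor genes in CPM (linear axes that start at 0 and differ between panels) in the 4 groups. Each symbol is 1 library, with its shape giving the replicate number, and the line is the mean of 3 libraries. Clec7a lies at 218 to 287 CPM in CtrV libraries and at 44.3 to 94.7 CPM in EKO libraries, with both replicate 1 libraries lowest, whereas Cd69 and Clec4a2 lie far higher in every EKO library.

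Activating and inhibitory receptors of this family differ in short tyrosine motifs of the cytoplasmic tail. A search of the first 60 codons of each gene in the GENCODE transcripts found a YxxL motif, the single-tyrosine motif through which dectin-1 binds SYK, at codons 15 to 18 of Clec7a. It found an ITIM-like motif at codons 5 to 10 of Clec4a2 and of Clec12a, and the one in Clec12a also matched YxxL at the same tyrosine, so YxxL letters alone do not mark an activating receptor. The starts of these coding sequences are shown because Clec7a and Clec4a2 gave the widest contrast between an activating and an inhibitory receptor below. The motif codons are in capitals.
Clec7a, coding bases 1 to 69: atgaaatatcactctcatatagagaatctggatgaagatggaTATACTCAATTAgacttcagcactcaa
Clec4a2, coding bases 1 to 60: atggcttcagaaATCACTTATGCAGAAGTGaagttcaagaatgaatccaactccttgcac
Clec12a, coding bases 1 to 60: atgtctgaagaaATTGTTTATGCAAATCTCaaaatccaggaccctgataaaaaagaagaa
In both ITIM-like motifs the tyrosine codon is codon 7. Clec4e, Clec4d and Clec5a had no match to either motif in this window. Clec4n had 1 ITIM-like match whose tyrosine codon is codon 41. The search did not check which codons lie in the tail, so this match is not shown to be a tail motif.

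Clec7a encodes dectin-1, the receptor for fungal beta-glucan that signals through its own tail. It measured 287, 237 and 222 CPM in CtrV_OVA and 44.3, 73.7 and 73.1 CPM in EKO_OVA, and 251, 228 and 218 CPM in CtrV_ut and 46.5, 94.7 and 90.3 CPM in EKO_ut. The lines did not overlap, and in both EKO groups replicate 1 lay well under the other replicates. The log2 difference was -2.01 ± 0.24 (SE, adjusted p = 7.1e-05, edgeR) in pulsed cells, about 4.02-fold lower. In unpulsed cells it was -1.63 ± 0.24 (adjusted p = 0.0003), or 3.09-fold lower. By replicate number, the OVA-pulsed pairs differed by -2.69, -1.69 and -1.60, so replicate 1 carried the largest fall. Without both EKO libraries of replicate 1 the differences were -1.67 ± 0.06 and -1.24 ± 0.06, still called. Clec7a lies on chromosome 6 from 129461591 to 129472779, minus strand (GRCm38, also named mm10), and GENCODE lists it with the biotype polymorphic pseudogene.

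The 4 activating receptors that signal through an adaptor went the other way. Clec4n, which encodes dectin-2, the receptor for fungal mannans, measured 1323, 1240 and 1129 CPM in CtrV_OVA and 2200, 2332 and 2042 CPM in EKO_OVA. In unpulsed cells its levels were 1234, 1182 and 1207 CPM in CtrV and 2183, 2601 and 2154 CPM in EKO. Each EKO library lay above each CtrV library, and the log2 difference was 0.83 ± 0.07 (SE, adjusted p = 5.9e-06, edgeR) with OVA and 0.93 ± 0.07 (adjusted p = 2.9e-06) without. Clec4n was the highest of the 10 genes per kilobase of exon in every group, at 851 ± 18.3 RPKM (SD, n = 3) in CtrV_ut and 1629 ± 176 RPKM in EKO_ut. It therefore made up most of the summed receptor mRNA in both lines.

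Clec5a encodes MDL-1, a myeloid receptor that pairs with the adaptors DAP12 and DAP10. Its levels were 160, 148 and 154 CPM in CtrV_OVA and 260, 329 and 301 CPM in EKO_OVA, and 154, 161 and 179 CPM in CtrV_ut and 265, 310 and 294 CPM in EKO_ut. The lines were apart in both conditions, with EKO replicate 1 the lowest of the EKO libraries in each. The log2 difference was 0.94 ± 0.08 (SE, adjusted p = 5.4e-06, edgeR) in pulsed and 0.81 ± 0.08 (adjusted p = 1.6e-05) in unpulsed cells.

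Clec4d and Clec4e encode MCL and Mincle, partner receptors for the mycobacterial cord factor that associate with the Fc receptor gamma chain. Clec4d measured 10.9, 9.18 and 8.92 CPM in CtrV_OVA and 13.4, 14.5 and 14.5 CPM in EKO_OVA, and 11.0, 9.88 and 10.5 CPM in CtrV_ut and 13.1, 16.3 and 15.2 CPM in EKO_ut. The lines did not overlap, but the gap was small, with log2 differences of 0.54 ± 0.10 (SE, adjusted p = 0.0013, edgeR) with OVA and 0.51 ± 0.10 (adjusted p = 0.0022) without. Clec4e was close to the filter: 1.49, 1.63 and 1.29 CPM in CtrV_OVA and 3.01, 3.18 and 3.01 CPM in EKO_OVA, from 39 to 55 counts and 98 to 115 counts. In unpulsed cells it measured 1.41, 1.25 and 1.65 CPM in CtrV and 1.98, 2.84 and 2.45 CPM in EKO. Its levels were low but apart between the lines, with log2 differences of 1.06 ± 0.15 (adjusted p = 0.00023, edgeR) and 0.75 ± 0.16 (adjusted p = 0.0036). Per kilobase Clec4e stayed near 0.3 to 0.6 RPKM in all groups (0.296 ± 0.0342 RPKM in CtrV_OVA and 0.618 ± 0.0203 RPKM in EKO_OVA, SD, n = 3), whereas its partner Clec4d lay at 6.04 ± 0.659 and 8.84 ± 0.374 RPKM.

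The inhibitory receptors moved in opposite directions. Clec4a2 encodes DCIR, an ITIM receptor of DCs, and measured 9.81, 10.1 and 11.2 CPM in CtrV_OVA and 50.2, 53.3 and 51.3 CPM in EKO_OVA. Unpulsed libraries gave 9.69, 10.6 and 10.1 CPM in CtrV and 47.8, 65.8 and 66.7 CPM in EKO. The CtrV libraries were tightly together, and every EKO library was several times higher, with a log2 difference of 2.32 ± 0.09 (SE, adjusted p = 3e-08, edgeR), or 4.99-fold, with OVA and 2.56 ± 0.09 (adjusted p = 2e-08), or 5.89-fold, without. This was the largest rise among the 10 genes in both comparisons. Of the 50-base stretches of its exons, 6.69% also occur in other genes, among them Clec4b1 and Clec4a4, so a part of its reads could have been placed on them or taken from them. Both were also called higher, Clec4b1 by 1.56 ± 0.13 with OVA and 1.77 ± 0.13 without, and Clec4a4 by 0.95 ± 0.07 and 1.03 ± 0.07. The part of shared reads in the rise of Clec4a2 was not tested.

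Clec12a encodes MICL, an ITIM receptor for uric acid crystals, and its differences were among the smallest. It measured 16, 21.4 and 24.6 CPM in CtrV_OVA and 11.7, 16.7 and 14 CPM in EKO_OVA, so that these groups overlapped, and 20.6, 19.8 and 22.5 CPM in CtrV_ut and 14.6, 17.2 and 16.1 CPM in EKO_ut, which did not. The log2 difference was -0.54 ± 0.11 (SE, adjusted p = 0.0026, edgeR) with OVA and -0.40 ± 0.11 (adjusted p = 0.015) without. The unpulsed call depended on the fit: without the replicate block the value was -0.39 with an adjusted p of 0.068. It was also lost without CtrV_ut replicate 1 (-0.29, adjusted p = 0.072) and without EKO_ut replicate 3 (-0.34, adjusted p = 0.072).

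Counting all 10 genes, the groups of the lines did not overlap for 9 genes with OVA and for 10 genes without. The same held for 52.9% of all tested genes with OVA and 47.1% without. Clec12a was the exception with OVA.

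**Figure D2:**
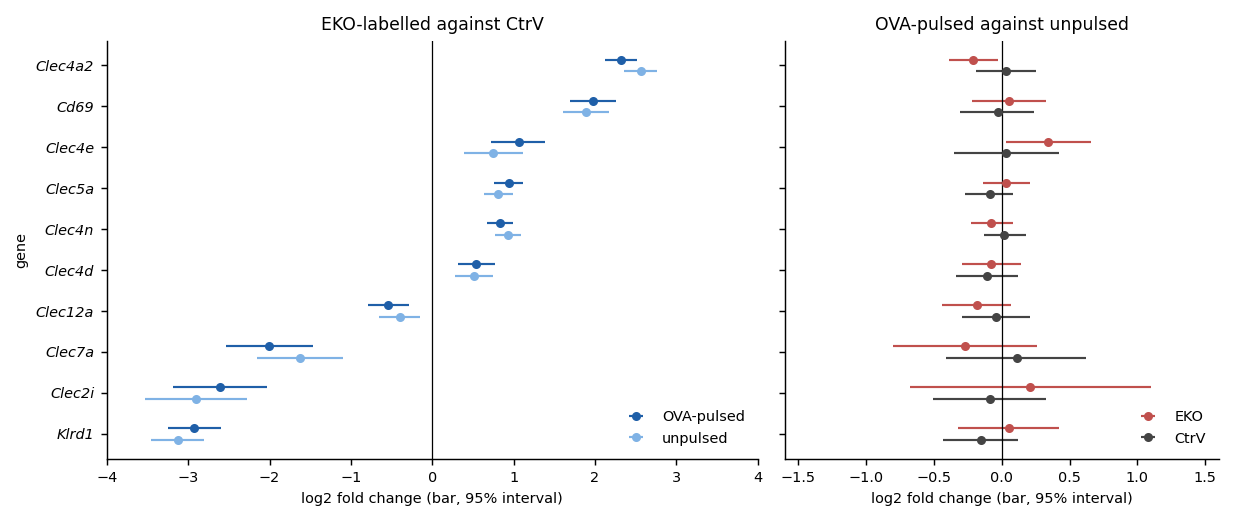
Log2 fold changes of the 10 receptor genes with 95% intervals from the edgeR fit over 12 libraries. Left, EKO-labelled against CtrV cells with and without OVA, ranging from -2.93 (Klrd1) to 2.32 (Clec4a2) with OVA. Right, the effect of the OVA pulse within each line, on a narrower axis, where the values lie between -0.27 and 0.34.

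Of the 3 lectins best known from lymphocytes, Klrd1 and Cd69 were expressed in both lines, and Clec2i lay over the filter in CtrV libraries only. Klrd1 encodes CD94, which on NK cells pairs with NKG2 proteins to recognise Qa-1, the product of H2-T23. It measured 41.1, 44.5 and 47.7 CPM in CtrV_OVA and 4.60, 7.11 and 5.93 CPM in EKO_OVA, and 45.2, 48.8 and 54.4 CPM in CtrV_ut and 6.86, 4.78 and 5.29 CPM in EKO_ut. This was the largest fall among the 10 genes, with no overlap in either condition. The log2 difference was -2.93 ± 0.14 (SE, adjusted p = 1.2e-07, edgeR) with OVA and -3.13 ± 0.15 (adjusted p = 1e-07) without, or 7.60-fold and 8.77-fold lower. Its best known partners were almost absent: Klrc1 had 0 to 4 counts and Klrc2 had 0 to 5 counts in a library, both genes being picked out after their values were seen. The ligand gene H2-T23 rose, from 152, 116 and 126 CPM in CtrV_OVA to 194, 179 and 198 CPM in EKO_OVA (log2 difference 0.53 ± 0.13, adjusted p = 0.007, edgeR).

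Clec2i encodes Clr-g, a lectin that serves as ligand for the NK receptor encoded by Klrb1f. It was the faintest of the 10 genes in EKO-labelled cells, with 5 to 8 counts in a library, against 30 to 54 counts in CtrV. In CPM this was 1.41, 1.24 and 1.36 in CtrV_OVA and 0.209, 0.257 and 0.184 in EKO_OVA, and 1.06, 1.40 and 1.86 in CtrV_ut and 0.183, 0.198 and 0.184 in EKO_ut. All EKO libraries lay under all CtrV libraries and above the 3-count level of 0.0785 to 0.110 CPM. The log2 difference was -2.61 ± 0.26 (SE, adjusted p = 1.8e-05, edgeR) with OVA and -2.91 ± 0.28 (adjusted p = 1.5e-05) without. Of its 50-base exon stretches, 4.10% also occur in Clec2g, Clec2h and Clec2d. Klrb1f fell with it, from 40.4, 38.8 and 38.7 CPM in CtrV_OVA to 0.340, 0.772 and 1.29 CPM in EKO_OVA, a log2 difference of -5.65 ± 0.26 (adjusted p = 7.1e-08, edgeR).

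Cd69, an early activation antigen that holds the sphingosine phosphate receptor S1PR1 inside the cell, measured 389, 361 and 493 CPM in CtrV_OVA and 1378, 1753 and 1759 CPM in EKO_OVA. Unpulsed libraries gave 359, 365 and 565 CPM in CtrV and 1232, 1766 and 1735 CPM in EKO. The lines were far apart, with CtrV replicate 3 the highest of its group and EKO replicate 1 the lowest of its group in both conditions. The log2 difference was 1.98 ± 0.13 (SE, adjusted p = 7.6e-07, edgeR), or 3.94-fold, with OVA and 1.89 ± 0.13 (adjusted p = 1.1e-06), or 3.71-fold, without. S1pr1, picked out after its values were seen, had 0 counts in 11 libraries and 1 count in CtrV_OVA replicate 1.

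Markers of NK, T and B cells, neutrophils and mast cells stayed near 0, and those of macrophages did not. Of 8 NK cell markers none passed the filter, and Ncr1, Gzmb, Prf1, Eomes and Klra8 had no count in any library. Their summed level was 0.394 to 1.24 CPM in CtrV_ut, 0.483 to 0.784 CPM in CtrV_OVA, 0.198 to 0.513 CPM in EKO_ut and 0.290 to 0.392 CPM in EKO_OVA, so the upper end was higher in CtrV. Of 6 T cell markers none passed, Cd3e, Cd3g and Trac had no count, and the sums lay at 0.0302 to 0.166 CPM in CtrV and 0.220 to 0.642 CPM in EKO libraries, without overlap. B cell markers (0 of 4 passed) summed to 0.0358 to 0.212 CPM in CtrV and 0.450 to 1.07 CPM in EKO libraries. Neutrophil and mast cell markers (0 of 7 passed) reached at most 0.0990 CPM, with Mpo alone having any count. Macrophage markers (3 of 5 passed) summed to 598 to 707 CPM in CtrV and 600 to 692 CPM in EKO libraries, nearly all from Adgre1. The part of any of these cells in the receptor levels was not tested. In bulk RNA, fewer cells that express a gene and less RNA of it per cell cannot be told apart.

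The order of the levels differed between the lines. In CtrV_OVA, mean levels per kilobase of exon ran from Clec4n (867 ± 68.5 RPKM, SD, n = 3) through Clec7a (94.4 ± 12.9), Cd69 (63.7 ± 10.6), Clec5a (40.1 ± 1.57), Klrd1 (34.7 ± 2.58), Clec4d (6.04 ± 0.659), Clec12a (3.73 ± 0.784), Clec4a2 (3.54 ± 0.245) and Clec2i (0.429 ± 0.0276) to Clec4e (0.296 ± 0.0342 RPKM). Clec12a and Clec4a2 overlapped between libraries there, and all other neighbours were apart. In CtrV_ut, 3 pairs of neighbours overlapped, namely Clec7a and Cd69, Clec5a and Klrd1, and Clec12a and Clec4a2. In EKO_OVA the order was Clec4n (1543 ± 102 RPKM), Cd69 (250 ± 33.5), Clec5a (77.2 ± 9.10), Clec7a (24.2 ± 6.37), Clec4a2 (17.6 ± 0.535), Clec4d (8.84 ± 0.374), Klrd1 (4.59 ± 0.979), Clec12a (2.56 ± 0.453), Clec4e (0.618 ± 0.0203) and Clec2i (0.0698 ± 0.0119 RPKM). EKO_ut had the same order, and in both EKO groups only Clec7a and Clec4a2 overlapped as neighbours. Thus Clec7a was the second highest of these genes in CtrV cells and the fourth in EKO-labelled cells, and Clec4a2 rose from the eighth to the fifth place. With the longest transcript as length in place of the exon union, Klrd1 stood above Clec5a in both CtrV groups, and the other ranks were as given.

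Pulsing with OVA left no call on these genes. In CtrV cells 0 of the 10 genes were called, with 0% of all tested genes called, and log2 differences between -0.15 and 0.11 whose 95% intervals stayed between -0.51 and 0.62. In EKO-labelled cells 0 of 10 were called as well, again with 0% of all tested genes, and the differences ran from -0.27 to 0.34, with intervals between -0.80 and 1.10. The dependence of the line difference on pulsing was called for 0 of 10 genes and for 0% of all tested genes, with values from -0.38 (Clec7a) to 0.31 (Clec4e) and intervals within -1.11 and 1.29. At an unadjusted p under 0.05, edgeR found 0 of the 10 genes in CtrV, 2 in EKO and 0 for the dependence, against 231, 394 and 269 of all tested genes. In this fit each of the counts over all genes lies under a share of 0.05, the share expected where nothing differs. These unadjusted counts hung on single libraries: without CtrV_ut replicate 1 they were 663 in CtrV and 945 for the dependence, without CtrV_ut replicate 2 they were 644 in CtrV, and without EKO_ut replicate 1 they were 1076 in EKO and 751 for the dependence, with 3 of the 10 genes in each. The CtrV count was 393 without CtrV_OVA replicate 1, with 2 of the 10 genes, and the EKO count was 244 without EKO_OVA replicate 1 and 766 without EKO_OVA replicate 2, with 1 of the 10 genes in each. No gene was called in any of these fits. DESeq2 and limma voom also called no gene in these 3 comparisons, with 44, 156 and 103 genes at an unadjusted p under 0.05 by DESeq2 and 246, 423 and 297 by voom. The 2 genes in EKO-labelled cells were Clec4e, where each of the 3 pulsed libraries lay above each unpulsed one (log2 difference 0.34 ± 0.14 SE, adjusted p = 1, edgeR), and Clec4a2, where pulsed replicates 2 and 3 lay under unpulsed replicates 2 and 3 (-0.21 ± 0.08, adjusted p = 1). Without both EKO libraries of replicate 1 these differences were 0.23 ± 0.17 for Clec4e and -0.34 ± 0.06 for Clec4a2, and still no gene was called. Effects of pulsing under these intervals were not detectable with 3 libraries a group. The comparisons within a line share their libraries with the comparisons between lines, so they are not independent of them.

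The genes sit in 3 places on chromosome 6. Clec4a2, Clec4n, Clec4d and Clec4e lie within 0.183 Mb, from 123106428 to 123289870 (GRCm38), with 1 other protein-coding gene between them that did not pass the filter. All 4 were higher in EKO-labelled cells, by 0.54 to 2.32 on the log2 scale in pulsed cells, where 25.1% of all tested genes were called higher. The rest except Clec5a lie within 0.711 Mb, from 128887588 to 129598775, in the order Clec2i, Cd69, Clec12a, Clec7a and Klrd1. There the directions were mixed: Cd69 was higher and its neighbours among the 10 genes were lower. Of 13 further protein-coding genes between Clec2i and Klrd1, 4 passed the filter, of which 1 was called higher and 2 lower, the latter including Klrb1f, beside 47.0% called over all tested genes. Clec5a lies alone, from 40574894 to 40585821, and none of the 10 genes shares an exon base with another annotated gene.

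**Figure D3:**
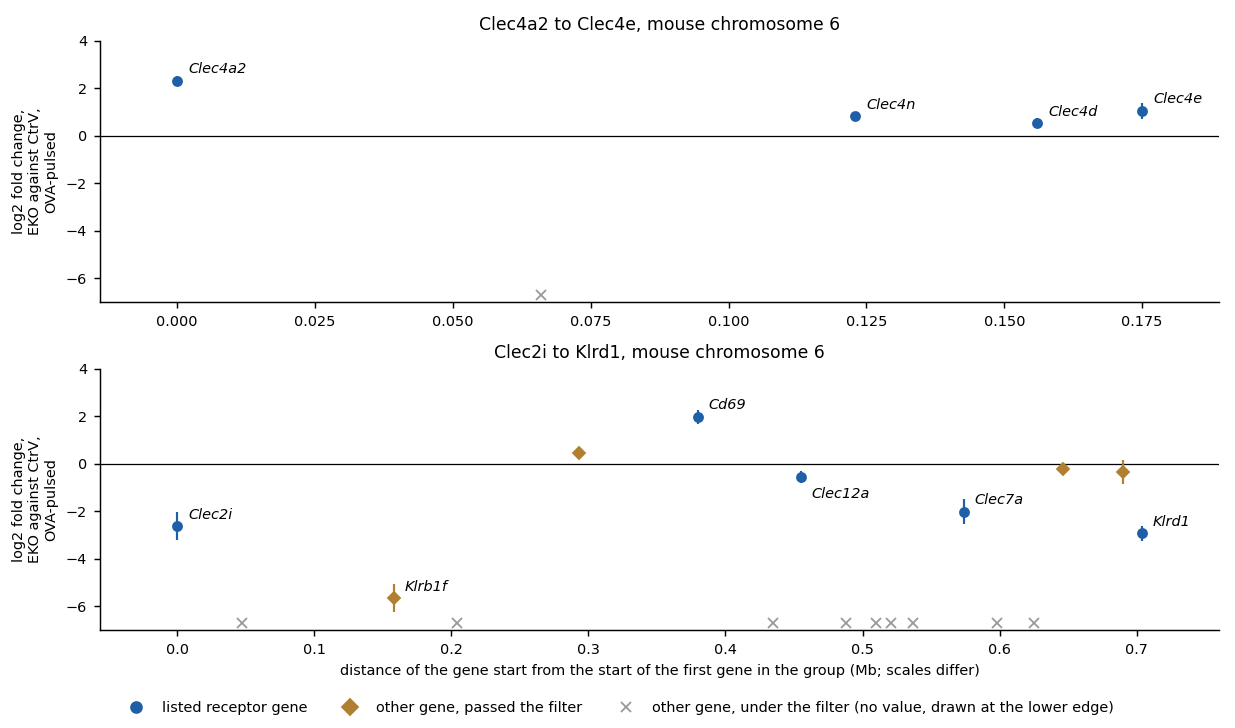
Log2 fold change of EKO-labelled against CtrV cells, OVA-pulsed, with 95% intervals, against the distance of each gene's start from the first gene of its group on chromosome 6, in Mb. The Clec4 genes in the upper panel lie above 0 (0.54 to 2.32). In the lower panel Cd69 at 1.98 and its neighbour Clec2d at 0.47 lie above 0. The other genes drawn there with a value lie below 0, though the interval of Klre1 includes 0. Crosses mark protein-coding genes under the filter, which have no value.

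Promoter sequences of 7 of the 10 genes were found in RefSeq (GRCm38.p6), and the 250 bases before the start are shown for the neighbours Clec4a2, Clec4d and Clec4e, which were higher together, and for Clec7a, which was lower. Capitals mark the letters GAGGAA on either strand (TTCCTC when read on the other), the core bound by the myeloid factor PU.1 and other ETS factors.
Clec4a2, chr6:123122440-123122689, plus strand: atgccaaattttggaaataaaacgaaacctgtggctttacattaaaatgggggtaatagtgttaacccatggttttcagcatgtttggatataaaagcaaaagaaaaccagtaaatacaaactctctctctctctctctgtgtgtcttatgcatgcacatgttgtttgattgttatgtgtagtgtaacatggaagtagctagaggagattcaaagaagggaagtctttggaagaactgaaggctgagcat
Clec4d, chr6:123261857-123262106, plus strand: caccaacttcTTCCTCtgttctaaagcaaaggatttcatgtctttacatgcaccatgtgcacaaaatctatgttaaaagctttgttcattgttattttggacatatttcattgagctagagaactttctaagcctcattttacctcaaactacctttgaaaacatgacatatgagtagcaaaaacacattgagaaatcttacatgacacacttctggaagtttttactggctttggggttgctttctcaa
Clec4e, chr6:123289872-123290121, minus strand: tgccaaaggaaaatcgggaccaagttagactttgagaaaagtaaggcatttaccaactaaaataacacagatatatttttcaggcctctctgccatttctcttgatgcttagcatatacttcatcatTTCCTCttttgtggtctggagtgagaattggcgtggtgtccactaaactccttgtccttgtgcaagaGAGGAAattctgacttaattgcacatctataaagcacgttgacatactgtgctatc
Clec7a, chr6:129472780-129473029, minus strand: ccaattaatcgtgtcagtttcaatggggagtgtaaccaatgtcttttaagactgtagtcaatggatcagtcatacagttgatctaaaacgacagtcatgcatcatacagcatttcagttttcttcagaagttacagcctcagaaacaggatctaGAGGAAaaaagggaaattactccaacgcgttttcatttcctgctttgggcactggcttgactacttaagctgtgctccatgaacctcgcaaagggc
The core was present in the windows of 250 bases before the start of Clec7a, Clec4e, Clec4d, Clec12a and Clec5a, 5 of the 7 found. The same windows held it in 23.1% of 27025 promoters. It was absent from those of Clec4a2 and Clec2i, so it occurred with both directions of change. Only the first listed start of each gene was searched. The Clec4a2 window lies inside the gene as annotated in GENCODE, which begins at 123106428, so another start of it was not examined. The C/EBP letters TTGCNNAA occurred in 2 of 7 (Clec4e and Clec12a) beside 9.55% of all promoters, the STAT letters TTCNNNGAA in 1 of 7 (Clec4a2) beside 7.18%, and the ISRE-like letters GAAANNGAA in 0 of 7 beside 7.16%. These 3 letter sets were also searched on both strands. A match describes the letters only, and no binding was measured.

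The adaptors of these receptors did not move together. Fcer1g, the Fc receptor gamma chain used by dectin-2, Mincle and MCL, rose from 37.4, 30.2 and 29.6 CPM in CtrV_OVA to 116, 96.8 and 105 CPM in EKO_OVA (log2 difference 1.71 ± 0.07 SE, adjusted p = 5.8e-08, edgeR). Tyrobp, which encodes DAP12, the adaptor of MDL-1, was at 288, 303 and 320 CPM and 275, 293 and 276 CPM in these groups, with a difference of -0.11 ± 0.06 that was not called (adjusted p = 0.14). Hcst, for DAP10, differed by 0.16 ± 0.10 (adjusted p = 0.22) with OVA and was called without OVA, at 0.34 ± 0.11 (adjusted p = 0.023); whether these values differ was tested by the dependence on pulsing, which was not called (adjusted p = 1). So the gene of the gamma chain was higher in each EKO library, and those of the other adaptors differed little.

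Downstream, Syk measured 226, 209 and 206 CPM in CtrV_OVA and 475, 471 and 466 CPM in EKO_OVA (log2 difference 1.14 ± 0.06 SE, adjusted p = 1.2e-07, edgeR), while Card9 differed by 0.07 ± 0.05 (adjusted p = 0.27). Of 31 genes of adaptors and activating signalling, all of which passed the filter, 19 were called higher and 5 lower with OVA, and 17 higher and 5 lower without. Over all tested genes, 25.1% were called higher and 21.9% lower with OVA, and 24.5% higher and 21.9% lower without. Their median log2 difference was 0.18 with OVA and 0.23 without, beside a median near 0 over all tested genes. This list too was chosen with earlier results known, so its medians only describe it. The largest rises reported here were those of Blnk (1.80), Fcer1g, Syk, Rel (1.09) and Pik3ap1 (1.06), and the largest falls those of Fgr (-1.46), Pik3cd (-0.53), Nfatc2 (-0.40), Vav3 (-0.36) and Plcg2 (-0.23). Blnk was highest in replicate 1 of both EKO groups, at 71.7, 38.2 and 52.4 CPM in EKO_OVA and 58.3, 43.8 and 41.4 CPM in EKO_ut. Rel encodes an NF-kB subunit, Fgr a SRC-family kinase of myeloid cells, and Plcg2 the phospholipase that SYK activates.

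A further list holds 11 genes of phosphatases, docking proteins and ubiquitin ligases that act on these signals, not all of them inhibitors. All 11 passed the filter. Of these, 5 were called higher and 2 lower with OVA, and 6 higher and 2 lower without, beside 47.0% and 46.4% called over all tested genes. The median log2 differences of the list were 0.18 and 0.19. Higher with OVA were Cblb (0.93), a ubiquitin ligase that targets SYK-coupled receptors, Inppl1 (0.72), Ptprj (0.40), Ptprc (0.32) and Ptpn11 (0.18), and lower were the docking proteins Dok2 (-1.56) and Dok3 (-0.26). Ptpn6, for the phosphatase SHP-1 that ITIM receptors recruit, differed by 0.18 ± 0.07 (SE, adjusted p = 0.065, edgeR) with OVA and by 0.26 ± 0.07 (adjusted p = 0.014) without. Inpp5d, for the lipid phosphatase SHIP-1, differed by -0.15 ± 0.06 (adjusted p = 0.081) and -0.06 ± 0.06 (adjusted p = 0.5).

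**Figure D4:**
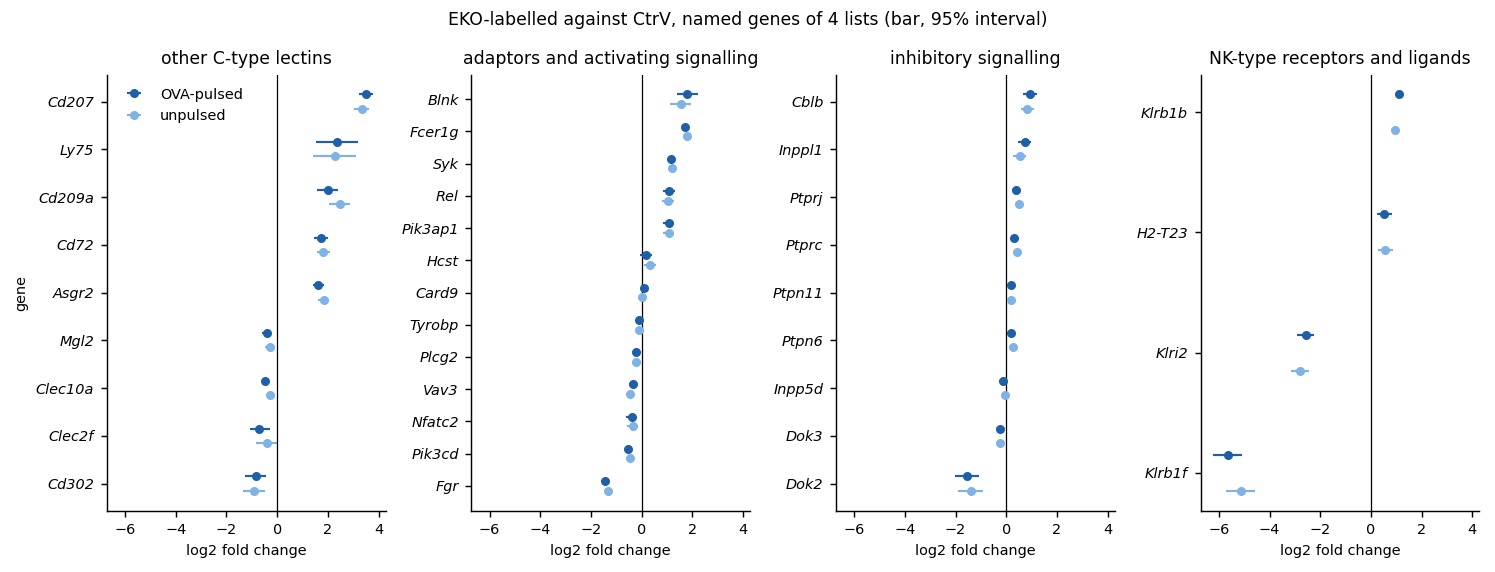
Log2 fold change of EKO-labelled against CtrV cells, with 95% intervals, for the named genes of 4 lists, OVA-pulsed and unpulsed. The panel titled inhibitory signalling holds phosphatases, docking proteins and a ubiquitin ligase, not all of them inhibitors. Among adaptors, Fcer1g at 1.71 stands apart from Tyrobp at -0.11 and Hcst at 0.16; Klrb1f at -5.65 is the lowest value drawn.

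Among 51 other C-type lectin genes, 14 passed the filter. With OVA, 9 of them were called higher and 4 lower, and without OVA 10 were called higher and 3 lower, beside 47.0% and 46.4% called over all tested genes. Of the 14, Cd209c passed only through EKO libraries, so a difference was built into its passing. The other 13 genes had 9 called higher and 4 lower with OVA and 9 higher and 3 lower without, with median log2 differences of 0.95 and 1.03 beside medians near 0 over all tested genes. As the list was chosen with earlier results known, these medians only describe it. Cd207, which encodes langerin, a lectin of Langerhans cells and other DCs, rose the most, from 8.67, 8.10 and 8.46 CPM in CtrV_OVA to 99.1, 107 and 80.5 CPM in EKO_OVA (3.50 ± 0.12 SE, adjusted p = 1.7e-08, edgeR). Ly75, for the endocytic receptor DEC-205, rose by 2.36 ± 0.37 (adjusted p = 0.00041), with EKO_OVA values of 127, 30 and 64.5 CPM that show a wide spread, and CtrV_OVA values of 21.0, 9.40 and 10.2 CPM. In EKO_ut its values were 115, 43.5 and 42.1 CPM, so replicate 1 was highest in both EKO groups. Cd209a (2.00), Cd72 (1.73) and Asgr2 (1.61) were also higher. Lower were Cd302 (-0.85), Clec2f (-0.70), Clec10a (-0.47) and Mgl2 (-0.41), of which Clec10a and Mgl2 encode galactose-binding lectins of DCs and macrophages. Of the 37 genes under the filter, 9 had no count in any library and none had more than 109 counts over the 12 libraries.

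Of 13 genes of NK-type receptors and partners of the lectins, among them H2-T23 and S1pr1, 6 passed the filter. Of these, 2 were called higher and 2 lower with OVA, and 2 higher and 3 lower without, beside 47.0% and 46.4% called over all tested genes. The higher genes were Klrb1b (1.11) and H2-T23, and the lower ones Klrb1f and Klri2, the latter from 11.0, 9.61 and 9.88 CPM in CtrV_OVA to 1.80, 1.74 and 1.57 CPM in EKO_OVA (-2.58 ± 0.15 SE, adjusted p = 3.3e-07, edgeR). The medians of these 6 genes were 0.01 with OVA and -0.53 without.

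Across the 12 libraries, the log2 CPM of the 6 higher genes correlated with each other at Pearson r of 0.89 to 0.99, and that of the 4 lower genes at 0.78 to 0.99. These values describe mainly the gap between the lines that the 12 libraries share, and carry no test. By the same measure, among genes with a mean log2 CPM of at least 1, the closest to Clec7a was Plagl1 (r = 0.991), the closest to Clec4n was Necap1 (0.993), the closest to Clec4a2 was Grap (0.996) and the closest to Cd69 was Slc39a7 (0.996). For Klrd1 it was Ero1lb (0.998), for Clec2i Meis3 (0.996), for Clec5a Tm2d1 (0.995), for Clec4d Tifa (0.983), for Clec4e Gm49037 (0.975) and for Clec12a Gm45867 (0.975).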

How the data were processed

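Libraries were made with a stranded mRNA kit. The authors deposited raw counts per gene; their processing notes name STAR, SAMtools, featureCounts and the mm10 build, with reads that map to several places reported once. Whether counting used the strand is not given in the sources used here. Here, genes with a log2 CPM above 0 (prior count of 2) in at least 2 of 12 libraries were kept, 14079 in all, and tested with edgeR 4.0.16 (R 4.3.3; TMM, quasi-likelihood, common dispersion 0.0059) in 1 fit over 12 libraries with group and replicate number as terms, as in the study's methods, with p adjusted after Benjamini and Hochberg across the 14079 genes. The standard error is the log2 fold change over the root of F. RPKM used the union of exons, and names and positions came from GENCODE vM21. The authors counted with another annotation release, so gene models may differ. Same-numbered libraries deviated together between the OVA-pulsed groups (correlations 0.448, 0.292 and 0.289) and between the EKO groups (0.706, 0.351 and 0.411), the pairing being that of the labelled replicate numbers. Alternatives were DESeq2 1.42.0, limma 3.58.1 voom, other normalizations, filters and thresholds, no block, fewer libraries and each library left out. Scripts were tested on simulated counts. The members, lists and the naming rule (all members, and per list the 5 called genes a direction with the largest changes with OVA, a mean log2 CPM not under 1 and 3 pairs in the same direction) were chosen with earlier results of these data known. Floors of 3 counts cover counting error only. 1 gene of the signalling list is not reported here.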

Additional observations from a re-analysis of the deposited data

How the results depend on the processing

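Under every alternative run, all values between the lines kept their direction for the 10 genes, and 0 genes were called for pulsing and for its dependence. With an absolute log2 difference of at least 1 required, 1268 genes and 6 of the 10 receptors were called with OVA, and 1241 genes and 5 of the 10 without. Without the replicate block, 5413 genes were called with OVA and 5337 without, and 10 and 9 of the receptors, Clec12a being the one lost. With each library left out in turn, or both EKO libraries of replicate 1, 5171 to 6993 genes were called with OVA and 5364 to 6476 without, and differences ran from -2.15 to -1.67 for Clec7a with OVA and from -1.78 to -1.24 without. Clec12a in unpulsed cells was the only one of the 10 to lose its call at an adjusted p under 0.01 (adjusted p = 0.015), without the block, and with a library left out. A minimum of 10 counts in every library removed Clec2i. Between the unpulsed groups of the lines, deviations of same-numbered libraries had correlations of 0.0602, -0.0118 and 0.263, and between the CtrV groups 0.0775, 0.179 and 0.373. By the same measure the pairing of these groups by number was uneven, with replicate 3 highest in both. The exon length moved 25 of 40 RPKM values by more than 1 SD. Depth limits Clec2i, with 5 to 8 counts in EKO libraries, and Clec4e, with 35 to 115 counts.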
